A study of Mus musculus with 18 samples.

Results

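The comparison described here set *Lin28A* overexpressing (OE) kidneys after 5 weeks of doxycycline (Dox) against OE kidneys after 2 weeks, to find which of the genes changed at 2 weeks had come back towards the control level and which had not. It used 3 libraries per time point, 6 of the 18 bulk kidney RNA libraries of the series, and every gene whose mean normalised read count over the 18 libraries was above 10, which were 16984 of 49585 genes. At the edge of that filter *Far1os*, at 10.0082, was kept and a predicted gene at 9.997 was left out. OE mice carried Lox-stop-Lox-TetOn-Lin28A together with Six2Cre, and control mice carried Lox-stop-Lox-TetOn-Lin28A without the Cre. All of them, controls included, drank water with Dox at 1 g/L, for 2 weeks or for 5 weeks, and the 3 control libraries of each time point gave the reference level. The remaining 6 libraries, OE and control after 1 week, entered the shared fit and were used once below as libraries outside the comparison. Cre was driven by *Six2*, which is active in the nephron progenitors of the embryo, so the transgene was available to the nephron and not to the stroma, vessels or ureteric tree. The counts per gene do not separate transgene reads from reads of the mouse's own *Lin28a*. The labels give Dox for the full 5 weeks and describe no withdrawal, and they give neither the age nor the sex of the mice.

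*Lin28A* encodes an RNA-binding protein of embryonic cells that blocks the maturation of the let-7 microRNA family, and let-7 in turn represses growth and embryonic genes through short sites in their 3′ UTRs. Interferon-stimulated genes are switched on when a complex that holds IRF9, or a related IRF, binds an interferon-stimulated response element (ISRE) near the start of the gene, and many chemokine genes carry an NF-κB (kB) element in the same place. An injured kidney tubule turns down its transporters and metabolic enzymes and turns on injury genes such as *Havcr1* and *Lcn2*. Tubules that recover regain the first set and lose the second, while some cells keep the injury genes, and fibroblasts lay down matrix around them.

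The promoter stretches below are shown because every tested gene of the interferon response fell from 2 to 5 weeks, and because chemokine genes fell but often stayed above the control. They come from the RefSeq promoter table (GRCm38.p6), are written 5′ to 3′ along the strand of the gene, and hold only the bases before the start site that lie outside annotated exons. Capitals mark the ISRE, searched as GAAA, any 2 bases and GAAA again, in *Oas3* (chr5:120777662-120777795, minus strand), *Gbp3* (chr3:142559794-142560025, plus strand), *Tgtp1* (chr11:48992259-48992496, minus strand) and *Cxcl10* (chr5:92348890-92349139, minus strand), where those of *Gbp3* are 2 overlapping matches read on the opposite strand. Capitals mark the kB element, searched as GGGA, any 1 base and TTTCC, in *Cxcl1* (chr5:90890995-90891240, plus strand) and, read on the opposite strand, in *Nfkbia* (chr12:55492648-55492897, minus strand).
Oas3: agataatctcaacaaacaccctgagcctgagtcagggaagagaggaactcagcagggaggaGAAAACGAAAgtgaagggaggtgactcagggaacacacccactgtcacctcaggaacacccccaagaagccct
Gbp3: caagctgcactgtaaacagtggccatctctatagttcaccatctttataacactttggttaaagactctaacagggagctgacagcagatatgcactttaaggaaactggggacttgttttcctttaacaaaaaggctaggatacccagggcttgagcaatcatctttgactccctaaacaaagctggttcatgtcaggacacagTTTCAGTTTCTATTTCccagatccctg
Tgtp1: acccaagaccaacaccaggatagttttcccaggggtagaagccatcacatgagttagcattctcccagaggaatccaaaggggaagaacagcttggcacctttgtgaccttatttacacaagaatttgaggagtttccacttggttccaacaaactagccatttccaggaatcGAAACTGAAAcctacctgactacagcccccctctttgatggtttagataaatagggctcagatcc
Cxcl10: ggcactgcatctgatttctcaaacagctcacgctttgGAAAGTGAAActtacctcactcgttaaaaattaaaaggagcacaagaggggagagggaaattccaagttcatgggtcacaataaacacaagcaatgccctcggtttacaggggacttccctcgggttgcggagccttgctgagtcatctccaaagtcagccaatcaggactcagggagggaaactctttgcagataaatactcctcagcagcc
Cxcl1: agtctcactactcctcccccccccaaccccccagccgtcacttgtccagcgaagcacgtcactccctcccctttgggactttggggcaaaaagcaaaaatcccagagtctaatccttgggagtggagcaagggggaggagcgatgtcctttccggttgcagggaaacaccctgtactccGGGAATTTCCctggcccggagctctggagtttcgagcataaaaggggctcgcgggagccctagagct
Nfkbia: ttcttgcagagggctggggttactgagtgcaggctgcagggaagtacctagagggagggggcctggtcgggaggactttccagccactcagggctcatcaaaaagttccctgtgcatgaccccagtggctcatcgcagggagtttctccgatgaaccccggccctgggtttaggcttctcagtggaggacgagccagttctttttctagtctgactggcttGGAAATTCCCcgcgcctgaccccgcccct
Over the 250 bases before the start in the RefSeq windows, and on either strand, the ISRE letters stood in 936 of 27025 genes (3.46%), in 10 of 23 interferon response genes with a window (43.5%) and in 9 of 10 interferon-induced GTPase genes (90.0%). The kB letters stood in 112 of 27025 genes (0.414%), in 3 of 9 CXC chemokine genes (33.3%) and in 2 of 14 genes of NF-κB regulators (14.3%). A match of letters is a description of these windows and no measurement of binding.

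The libraries held between 21376177 and 28686369 reads in the 4 groups at 2 and 5 weeks, and 25509808 to 26844887 in the 6 OE libraries compared. Markers of the nephron segments were present in all 18 libraries, with lowest values of 1474 for *Lrp2* (proximal tubule), 15320 for *Umod* (thick ascending limb), 1630 for *Slc12a3* (distal convoluted tubule) and 12324 for *Aqp2* (collecting duct). In 1 OE library at 2 weeks and in 2 at 5 weeks the Y-linked *Ddx3y* was above 100 normalised counts, and in the other OE libraries the X-linked *Xist* was, so the 2 time points were not matched for sex. Along the first principal component, which held 62.7% of the variance, controls at 2 and 5 weeks scored 30.4 to 41.3, OE libraries at 2 weeks -74.1 to -64.1, and OE libraries at 5 weeks -16 to 4.09, with replicate 1 at 5 weeks closest to the controls. Nothing in the labels says that libraries of a group came from separate litters or days, so p-values measure the spread between these libraries.

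*Lin28a* (ENSMUSG00000050966.9, chr4:134003330-134018841, GRCm38) was the first check of the labels. Its normalised read counts in OE kidneys were 116461, 71764 and 52622 at 2 weeks and 615, 600 and 420 at 5 weeks, against 14.4 to 19.4 in controls at 2 weeks and 16.4 to 28.5 in controls at 5 weeks. All OE libraries lay above all controls at both times, and the OE groups did not overlap. The fall from 2 to 5 weeks was -7.14 on the log2(value + 1) scale that is used for every fold change here (SE 0.29, adjusted p = 5.36e-10), which left *Lin28a* 4.48 log2 units above the control at 5 weeks. *Six2*, the nephron progenitor factor whose promoter drives the Cre, followed the same course, from 17735, 10124 and 10177 to 159, 95.4 and 48.3 (-7.07, SE 0.58, adjusted p = 2.30e-07), while the 3 controls at 2 weeks held 2 *Six2* reads in all. The time comparison is therefore also a comparison of high with low *Lin28a*, and the part of each cannot be told apart.

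**Figure D1:**
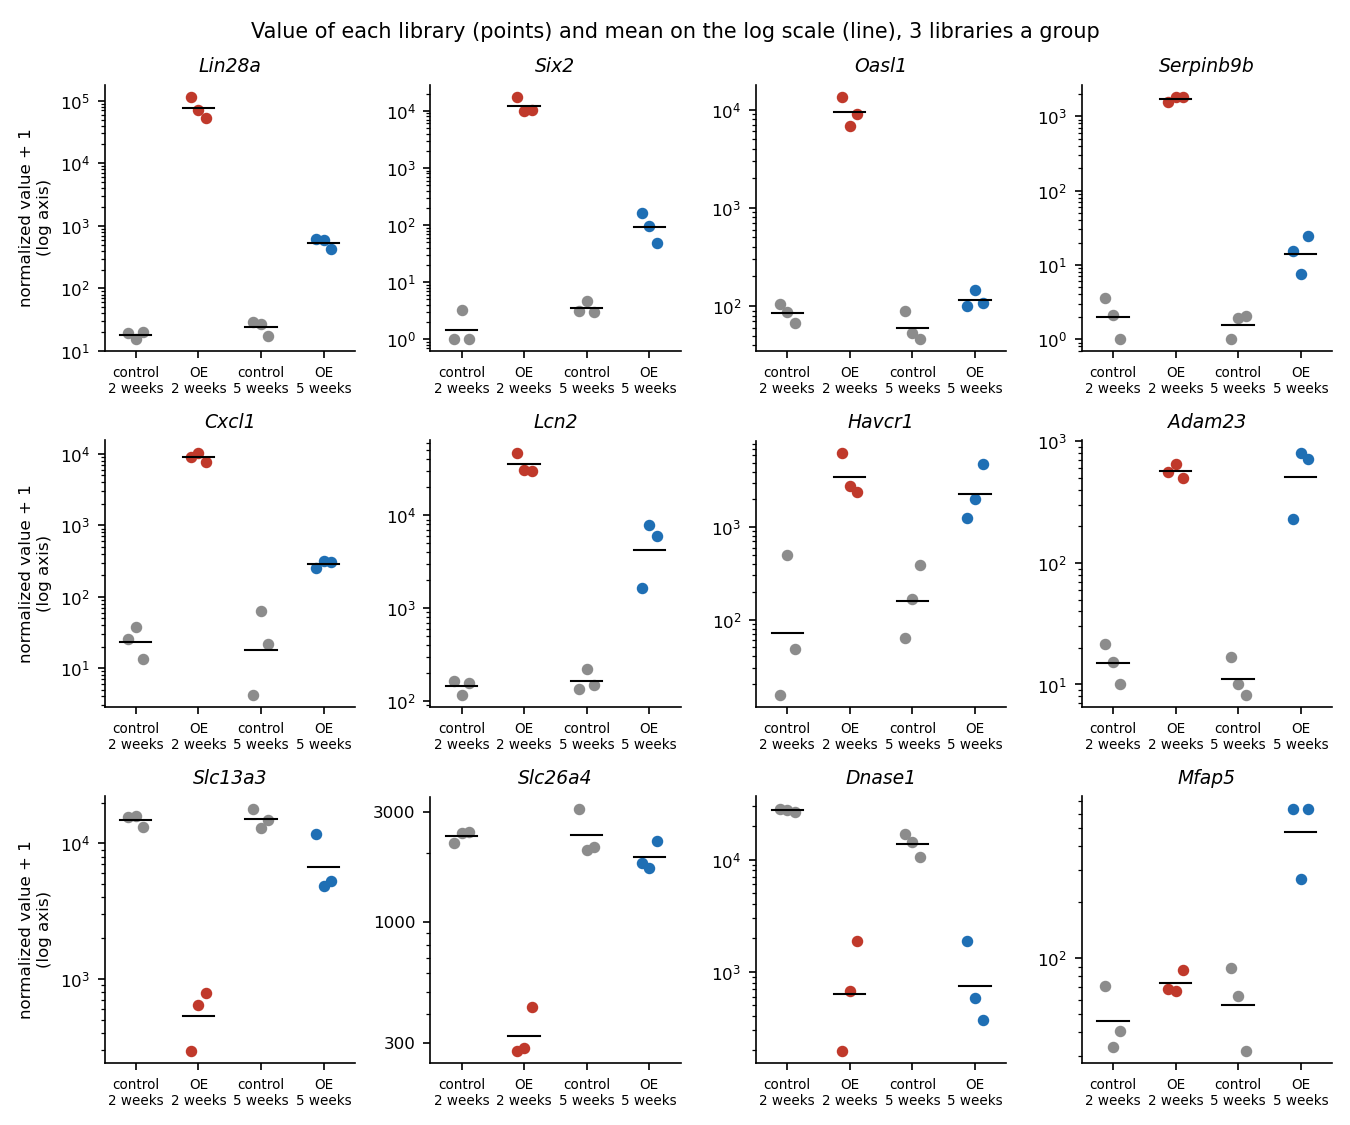
Normalised read counts plus 1 (vertical log axes) of 12 genes in each control and OE library at 2 and 5 weeks, 3 points per group with a line at the mean on the log scale. *Lin28a* fell from 52622 or more to 615 or less in OE kidneys, *Oasl1* and *Slc26a4* came within 1 log2 unit of the control, *Cxcl1* and *Lcn2* fell but stayed above the controls, *Havcr1*, *Adam23* and *Dnase1* overlapped between the times and stayed apart from the controls, and *Mfap5* was high at 5 weeks.

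From 2 to 5 weeks 1865 genes rose in OE kidneys (11.0% of those tested) and 1564 fell (9.21%), together 20.2%. A gene was called when it changed by more than 1 log2 unit with a p, adjusted by Benjamini-Hochberg over all tested genes, under 0.05 (limma). The 3 libraries of each time did not overlap in 4325 genes that were higher at 5 weeks (25.5%) and in 4219 that were lower (24.8%). Between the controls of the same times 6 genes rose (0.0353%) and 8 fell (0.0471%), together 0.0824%, and 1590 had an unadjusted p under 0.05. That small count depended on single libraries: it was 151 without control replicate 1 at 2 weeks, 28 without OE replicate 1 at 5 weeks, and 3 to 7 without any 1 of the other control libraries at these times. Set against the change in controls by an interaction term, 1530 genes had a higher effect of OE at 5 weeks than at 2 weeks (9.01%) and 1234 a lower one (7.27%). The median change over all tested genes was 0.06.

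Genes were then followed from their state at 2 weeks. Of the tested genes 2511 were higher in OE than in control kidneys at 2 weeks (14.8%) and 2860 were lower (16.8%). At 5 weeks these numbers were 818 (4.82%) and 514 (3.03%), together 7.84%. A gene was counted as returned if it passed the test from 2 to 5 weeks towards the control and ended within 1 log2 unit of it, as partly returned if it passed but ended further away on the same side, and as persisted if it did not pass and still differed from the control at 5 weeks. Both comparisons use the OE libraries at 2 weeks, so some movement towards the control is built into these classes. Of the higher genes 966 returned (38.5%), 370 returned in part (14.7%) and 321 persisted (12.8%). Of the lower genes 1072 returned (37.5%), 292 returned in part (10.2%) and 207 persisted (7.24%). The 95% interval at 5 weeks lay wholly within 1 log2 unit of the control for 522 of the 966 and 523 of the 1072 returned genes, and for the others the interval reached past 1 log2 unit, so a remaining difference above that size was not excluded. A further 820 higher and 1263 lower genes met none of these rules, and in 754 and 1217 of them the estimate had moved towards the control. Only 20 higher and 6 lower genes passed the test away from the control, and 14 and 20 passed through the control level to the other side. The persisting genes depended on single libraries, from 201 (without OE replicate 3 at 5 weeks) to 439 for the higher set. For the lower set they numbered 373 without OE replicate 1 at 5 weeks, 130 without replicate 2 and 131 without replicate 3.

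**Figure D2:**
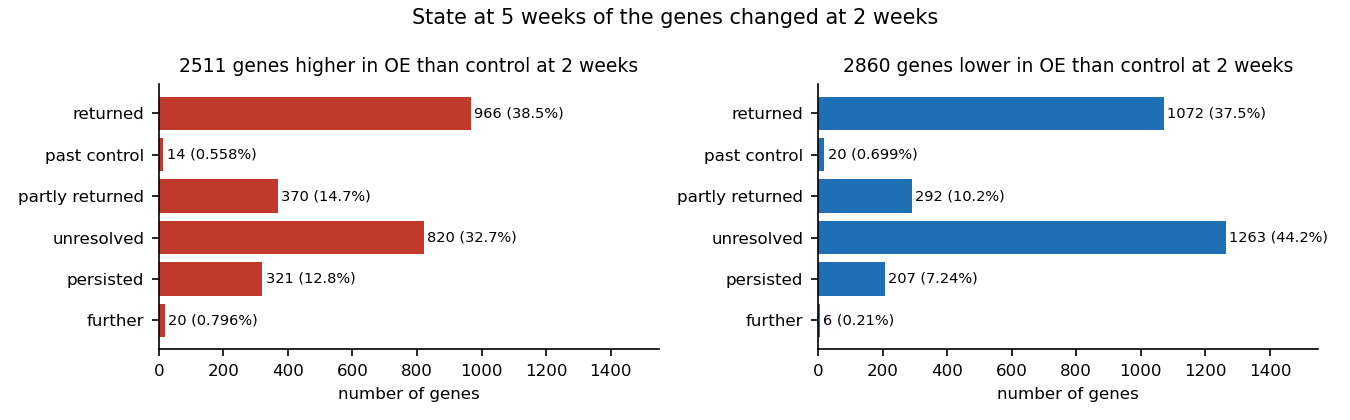
Number of genes in each class of change from 2 to 5 weeks (horizontal axis), for the 2511 genes higher and the 2860 genes lower in OE than in control kidneys at 2 weeks; each bar carries its number and its share. Returned genes, 966 and 1072, outnumbered persisting genes, 321 and 207, on both sides.

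A choice of genes that did not use the 5-week comparison's libraries gave the same direction. The OE and control libraries at 1 week called 1394 genes higher in OE (8.21%) and 852 lower (5.02%). Of the 1394 higher genes 908 fell from 2 to 5 weeks (65.1%) and 19 rose, and their median difference from the control was 1.74 at 1 week, 2.18 at 2 weeks and 0.84 at 5 weeks. Of the 852 lower genes 553 rose (64.9%) and 4 fell, with medians of -1.39, -2.47 and -0.73.

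**Figure D3:**
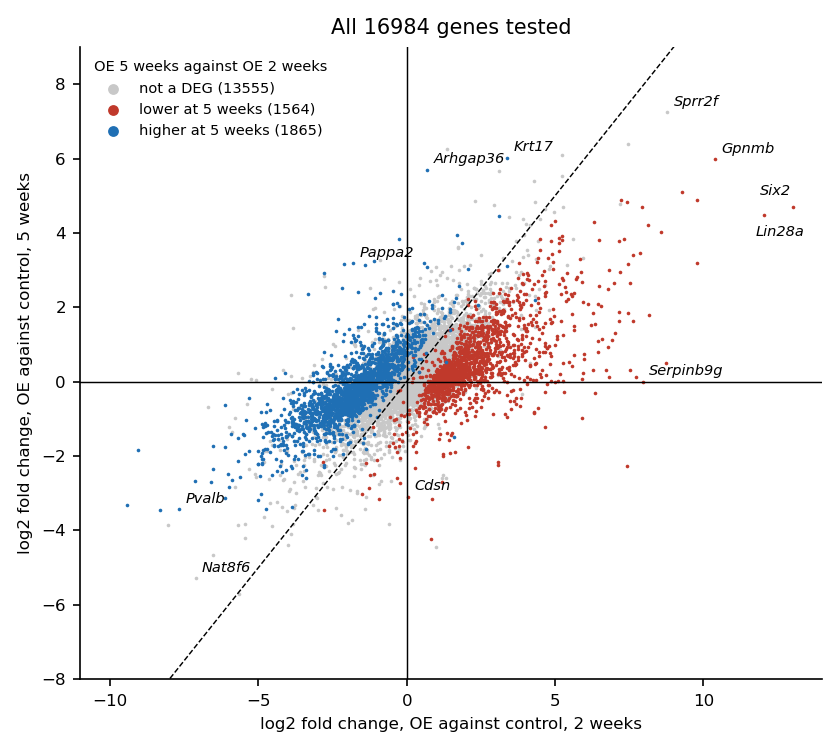
Difference between OE and control kidneys at 5 weeks (vertical axis, log2) against that at 2 weeks (horizontal axis, log2), 1 point per tested gene. Colours mark the 1564 genes lower and the 1865 higher at 5 weeks than at 2 weeks in OE kidneys, the dashed line marks equal effects at both times, and *Sprr2f* and *Nat8f6* lie near that line while *Serpinb9g* lies on the zero line of the vertical axis.

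The interferon response fell as a block. All 31 of 31 tested genes of the list passed the test downwards from 2 to 5 weeks, with a median of -3.87, after all 31 had been higher in OE kidneys at 2 weeks (median 4.26), and at 5 weeks 2 of 31 were still higher (median 0.35). By class 27 returned and 4 returned in part. *Oasl1*, a member of the oligoadenylate synthetase family that restrains the translation of IRF7, had 13524, 6832 and 9068 normalised counts at 2 weeks and 99.1, 144 and 106 at 5 weeks. The controls at 5 weeks had 45.0 to 88.8, below every OE library, and the fall was -6.35 (SE 0.31, adjusted p = 2.26e-09), ending 0.94 above the control. *Irf7*, the transcription factor that amplifies type I interferon, went from 16362, 8430 and 9285 to 387, 564 and 302, with 2 of 3 libraries inside the range of 281 to 545 of the controls (-4.74, SE 0.30, adjusted p = 2.34e-08). *Isg15*, a ubiquitin-like modifier, fell by 5.25 and ended 0.03 above the control.

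The exceptions were few. *Mx1*, a dynamin-like GTPase that blocks viral ribonucleoproteins, fell from 2795, 2534 and 2791 to 26.1, 34.6 and 35.2 (-6.37, SE 0.63, adjusted p = 1.23e-06) and stayed 2.64 above the control. *Oas3*, whose promoter is shown above and whose product makes the 2-5A signal for RNase L, fell from 1251, 566 and 738 to 5.40, 24.3 and 10.5 (-6.03, SE 0.69, adjusted p = 4.55e-06), with an estimate 1.56 above the control. The transcription factor *Irf1* moved least of the 31 (-1.26), and *Irf9*, a subunit of the complex that binds the ISRE, fell by 1.53.

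The interferon-induced GTPases, which attack the vacuoles of intracellular pathogens, fell in 17 of 17 genes (15 by the interaction, median -2.78), and 1 was still higher than the control at 5 weeks. That gene, *Gbp8*, fell by 2.35 in OE kidneys. Its difference from the control was 2.07 at 2 weeks and 2.22 at 5 weeks. *Gbp3* went from 7089, 4232 and 5390 to 617, 427 and 423 (-3.50, SE 0.27, adjusted p = 1.21e-07). *Tgtp1* went from 368, 280 and 399 to 55.8, 11.2 and 35.2 (-3.56, SE 0.51, adjusted p = 3.68e-05), so the spread at 5 weeks was wide while the groups stayed apart. Of the antigen presentation genes of MHC class I, 17 of 19 fell (14 by the interaction, median -1.78), all 17 that had been higher at 2 weeks. *Tap1*, the peptide transporter of the endoplasmic reticulum, went from 3416, 2361 and 3183 to 434, 378 and 441 (-2.82, SE 0.21, adjusted p = 7.59e-08). The class I heavy chain *H2-D1* fell by 2.92 and ended 0.04 above the control, though in the controls too it was lower at 5 weeks, 2324 to 5539 against 7637 to 8514. *Nlrc5*, the transactivator of class I genes, was the 1 member still called higher at 5 weeks.

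MHC class II genes, through which macrophages, dendritic cells and B cells present antigen, gave other values. From 2 to 5 weeks 0 of 9 tested genes passed with limma, edgeR or DESeq2, and 0 had an unadjusted p under 0.05 (median -0.38). Against the control 3 were higher at 2 weeks and 5 at 5 weeks (median 1.34), but 0 were called at 5 weeks without OE replicate 3 or control replicate 2, and 2 without OE replicate 1. The controls themselves were lower at 5 weeks than at 2 weeks (median -0.94, 0 of 9 genes called). The larger difference at 5 weeks therefore does not show a rise in OE kidneys. *H2-Ab1*, a class II beta chain, had 2099, 1288 and 3106 counts at 2 weeks and 1837, 659 and 2041 at 5 weeks, against 314 to 586 in controls at 5 weeks. The groups of OE libraries overlapped, and all 3 of them at 5 weeks lay above the controls (1.68, adjusted p = 0.0161). In bulk tissue, fewer cells of a type and less RNA per cell cannot be told apart, here and in every result below.

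**Figure D4:**
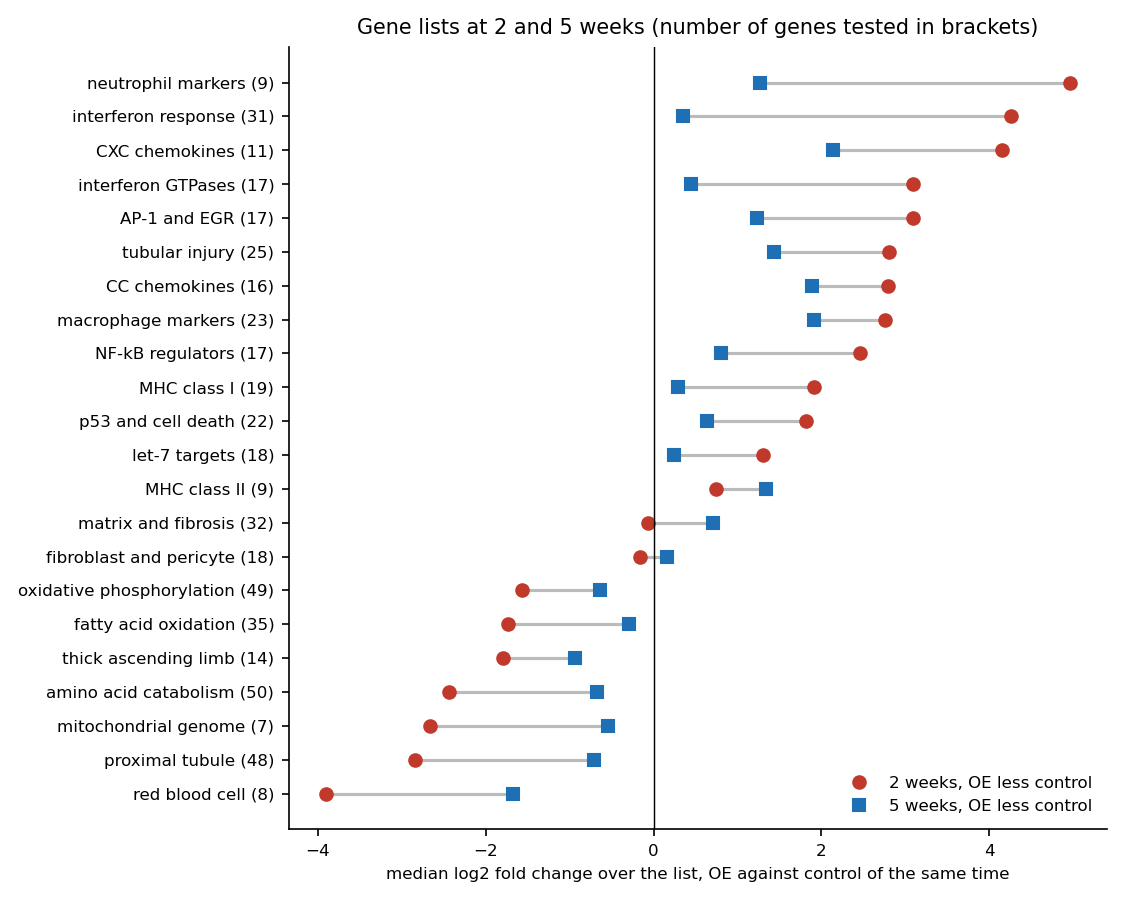
Median difference between OE and control kidneys (horizontal axis, log2) of selected gene lists at 2 weeks and at 5 weeks, 1 line per list joining its 2 medians. The interferon response moved from 4.26 to 0.35 and the proximal tubule list from -2.84 to -0.70, while the CC chemokines stood at 2.79 and 1.89 and MHC class II at 0.74 and 1.34. The class II values of the controls were themselves lower at 5 weeks than at 2 weeks (median -0.94).

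Chemokines fell, and several stayed above the control. Of 11 CXC chemokines 8 fell and 2 rose (6 and 2 by the interaction), and 6 were higher than the control at 5 weeks (median 2.15). *Cxcl1* (chr5:90891241-90893115), a neutrophil attractant whose kB element is shown above, went from 9006, 10445 and 7614 to 252, 313 and 305. The controls at 5 weeks had 3.17, 62.0 and 20.5, so each OE library remained above them (fall -4.95, SE 0.68, adjusted p = 2.58e-05, ending 4.03 above control). *Cxcl10*, the interferon-induced attractant of T cells, went from 10902, 7691 and 9395 to 177, 203 and 213 (-5.54, SE 0.27, adjusted p = 2.26e-09) and ended 2.64 above. *Cxcl5*, also a neutrophil attractant, went from 1799, 2015 and 4053 to 27.9, 49.5 and 163 (-5.30, SE 0.74, adjusted p = 3.16e-05).

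The 2 CXC genes that rose were not neutrophil attractants. *Cxcl12*, the stromal ligand of CXCR4, rose from 1558, 3483 and 3575 to 14503, 5413 and 8077 (1.68, SE 0.36, adjusted p = 1.29e-03). *Cxcl14*, made by epithelia and fibroblasts, rose from 201, 150 and 299 to 1711, 677 and 1624 (2.56). Among CC chemokines 5 of 16 fell (10 without OE replicate 2 at 2 weeks), and 9 of 16 were higher than the control at 5 weeks (3 without OE replicate 3). The interaction called 2 of 16 lower. *Ccl2*, the main attractant of monocytes, went from 3009, 1310 and 1343 to 168, 107 and 495 (-3.07, SE 0.56, adjusted p = 3.39e-04) and ended 3.01 above.

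Of 24 cytokine genes 15 fell (12 by the interaction), and 10 were still higher than the control. *Tnf* went from 479, 382 and 522 to 14.4, 4.67 and 30.8 (-5.03, SE 0.48, adjusted p = 9.01e-07) and returned, whereas *Il1b* fell by 2.55 and remained 1.54 above. Of 17 genes of NF-κB subunits and regulators 13 fell. The inhibitor *Nfkbia* went from 12139, 10575 and 7749 to 1798, 2352 and 1870 (-2.32, SE 0.22, adjusted p = 7.88e-07) and ended 0.38 above, and *Zc3h12a*, the RNase that degrades cytokine mRNAs, fell by 5.09 to 0.71 above. Of 17 immediate early genes 13 fell (9 by the interaction, median -1.15, and 8 without OE replicate 1 at 5 weeks). The list held AP-1 and EGR genes and also *Klf*, *Ier* and *Dusp* genes. At 5 weeks 8 of the 17 stayed higher than the control, among them *Egr1*. It had 3417, 2777 and 3072 counts at 2 weeks, 924, 1088 and 1108 at 5 weeks and 136 to 285 in controls.

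Neutrophil and macrophage markers fell, and part of each list was still above the control at 5 weeks. Of 9 neutrophil genes 8 fell (median -3.89) and 3 were higher than the control at 5 weeks (median 1.26), and their summed level went from 1923 to 3001 down to 136 to 366, with controls at 5 weeks at 77.5 to 186. *S100a9*, a calcium-binding alarmin of neutrophils, went from 742, 548 and 353 to 25.2, 17.8 and 81.7 (-3.93, SE 0.57, adjusted p = 4.54e-05), with an estimate 1.57 above the control. Of 23 macrophage and monocyte genes 11 fell (7 by the interaction) and 18 were higher than the control at 5 weeks (median 1.92). Their summed level was 30772 to 48833 at 2 weeks, 14888 to 20576 at 5 weeks and 5764 to 6676 in controls at 5 weeks, so these 3 groups did not overlap.

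*Gpnmb*, a glycoprotein of lipid-laden and phagocytosing macrophages that injured epithelia also make, fell from 3721, 5804 and 3035 to 134, 275 and 316 (-4.15, SE 0.70, adjusted p = 1.83e-04) and ended 5.99 above controls that held 12 reads in all. *Fcgr1* and *Itgam*, the high-affinity IgG receptor and an integrin of monocytes, fell by 2.28 and 2.06 and stayed 2.63 and 2.71 above. *Adgre1*, the F4/80 antigen of resident macrophages, went from 725, 439 and 729 to 457, 194 and 512, which did not pass (-0.78, SE 0.35, adjusted p = 0.0795), and remained 1.68 above. It passed without OE replicate 2 at 2 weeks (-1.02) or OE replicate 3 at 5 weeks (-1.04). Of 12 genes of T and NK cells 4 fell, but only 1 or 2 without OE replicate 2 or 3 at 2 weeks or OE replicate 2 at 5 weeks. Set against the change in controls (median -0.42) by the interaction, 0 of 12 passed. The part of leukocyte number in the chemokine, class II and complement values was not tested.

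Many complement and acute phase genes were still above the control at 5 weeks. Of 21 complement genes 7 fell (median -0.45, and 4 without OE replicate 1 or 3 at 2 weeks or OE replicate 1 at 5 weeks), and 13 were higher than the control at 2 weeks against 12 at 5 weeks. By the interaction 2 of 21 passed downwards. *C3*, the central component, went from 17272, 16359 and 18969 to 4595, 10451 and 8583, while controls at 5 weeks had 260 to 524 (-1.23, SE 0.45, adjusted p = 0.0345, ending 4.32 above), a call lost without OE replicate 1 at 5 weeks (-0.89) and without any 1 of the OE libraries at 2 weeks (-1.28 to -1.18). *C1qa*, the recognition subunit of the classical pathway, which macrophages make, went from 6347, 2510 and 4761 to 1471, 1386 and 2370 (-1.32, SE 0.31, adjusted p = 2.37e-03). Of 20 acute phase and plasma protein genes 7 fell (3 without OE replicate 1 at 5 weeks), and 11 were still higher than the control (median 2.40). With the change in controls taken off by the interaction, 2 of 20 passed downwards. *Saa3* had 784, 166 and 210 at 2 weeks and 10.8, 68.2 and 133 at 5 weeks, a change of -2.66 that missed the threshold (SE 1.12, adjusted p = 0.0616) with all but 1 of 6 control libraries at these times at 4.23 or less. Without OE replicate 3 at 5 weeks it passed (-3.40).

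**Figure D5:**
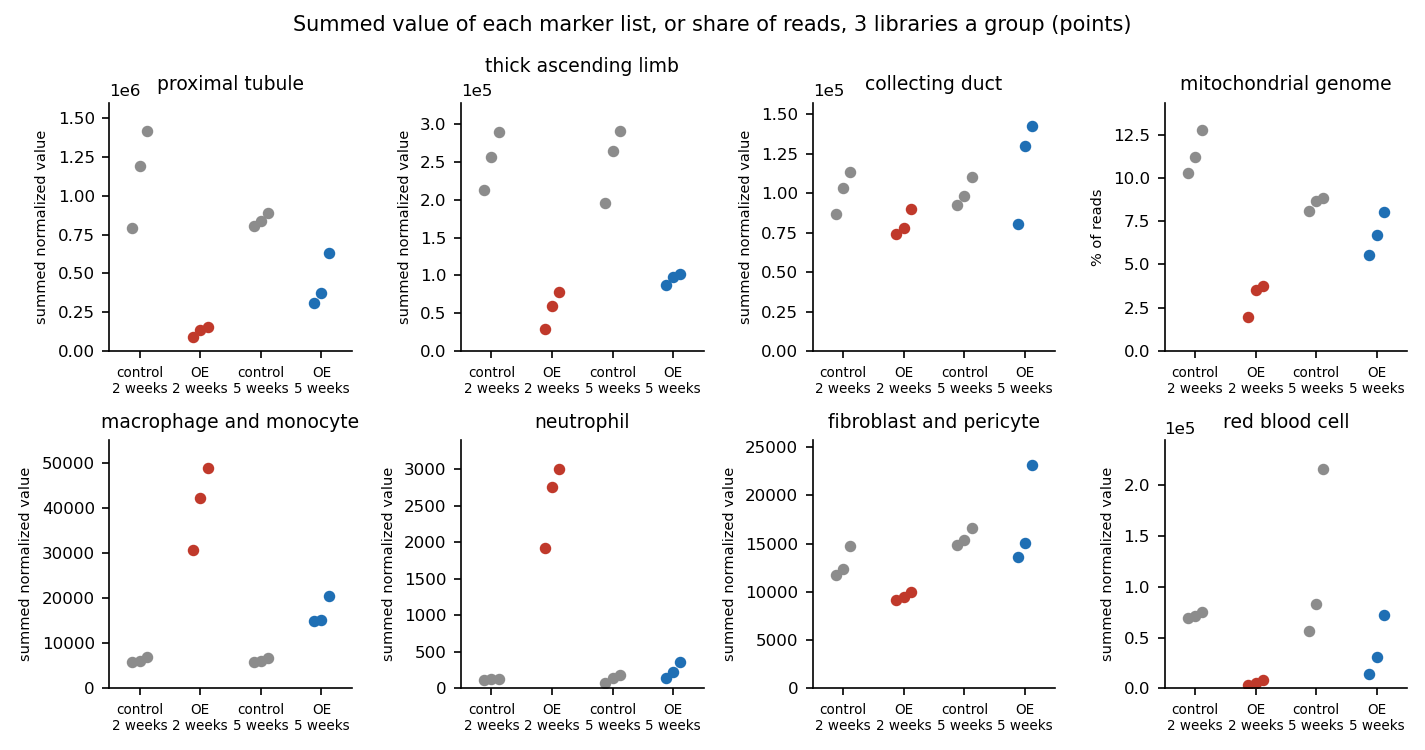
Summed normalised read counts (vertical axes from 0) of the markers of 7 cell types, and the share of reads from the mitochondrial genome in percent, in each control and OE library at 2 and 5 weeks, 1 point per library. Neutrophil sums fell to 136 to 366, macrophage sums fell to 14888 to 20576, above the controls, proximal tubule sums rose to 311463 to 631381 and remained below the controls at 5 weeks, and red blood cell sums ranged from 13632 to 72126.

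Most genes of tubular injury did not return to the control level. Of 25 tested genes 21 were higher than the control at 2 weeks (median 2.81) and 16 at 5 weeks (median 1.44), with 9 falling between the 2 times. By class 1 returned, 8 returned in part and 8 persisted. *Havcr1* (chr11:46735080-46779578), which encodes the injury molecule KIM-1 of the proximal tubule, had 6407, 2755 and 2381 counts at 2 weeks and 1272, 2022 and 4795 at 5 weeks. The controls at 5 weeks had 62.3, 167 and 389. The OE groups overlapped (-0.59, SE 1.00, adjusted p = 0.653) and the difference from the control at 5 weeks was 3.85.

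*Sox9*, the transcription factor of regenerating tubule cells, had 554, 194 and 288 at 2 weeks and 204, 332 and 491 at 5 weeks (0.03, SE 0.35, adjusted p = 0.946), against 26.4 to 39.1 in controls. *Timp1*, an inhibitor of metalloproteinases, had 777, 213 and 364 and then 353, 294 and 636, against 14.3 to 18. *Vcam1*, an adhesion molecule that marks tubule cells with failed repair, had 1833, 1590 and 3471 and then 2010, 822 and 2456. In these 3 genes the OE libraries of the 2 times overlapped and each lay above all controls. *Spp1*, the secreted phosphoprotein osteopontin, and *Clu*, the chaperone clusterin, persisted too, each ending 1.44 above the control.

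Other injury genes fell by large amounts and still ended above the control. *Lcn2* (chr2:32384633-32388252), the siderophore-binding lipocalin released by the distal nephron, went from 47415, 30930 and 30341 to 1635, 7827 and 5947, with controls at 132 to 221 (-3.06, SE 0.47, adjusted p = 7.44e-05, ending 4.69 above). *Cdkn1a*, the cell cycle inhibitor p21, went from 22017, 17266 and 10674 to 500, 1970 and 1114 (-3.95, SE 0.43, adjusted p = 3.24e-06, ending 2.09 above). *Krt20*, a keratin of injured tubule cells, fell by 3.70 and *Gprc5a*, an orphan receptor of epithelia, by 3.26. In *Lcn2*, *Cdkn1a* and *Krt20* replicate 1 was the lowest of the OE libraries at 5 weeks.

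Outside the list, the persisting genes with the largest 2-week difference included *Sprr2f*, a small proline-rich protein of squamous epithelia. It had 2361, 667 and 260 counts and then 65.7, 470 and 659, where the 3 controls at 5 weeks held 3 reads. The change was -1.44 (SE 0.87, adjusted p = 0.189). *Adam23*, a membrane protein without protease activity, had 554, 646 and 503 and then 231, 808 and 715 (-0.14, SE 0.56, adjusted p = 0.852), and stood 5.52 above the control. By contrast 3 neighbouring genes of the *Serpinb9* family on chromosome 13, intracellular inhibitors of granzyme-like proteases, all but disappeared. *Serpinb9b* went from 1537, 1838 and 1819 to 14.4, 6.54 and 23.7 (-6.92, SE 0.48, adjusted p = 4.56e-08). *Serpinb9g* went from 254, 257 and 238 to 0 reads in every library, at least 92.0-fold lower against a floor of 3 reads per library, and *Serpinb9e* from 1489 reads in all to 2, a ratio of 709 (exact 95% counting interval 196 to 5860). These paralogs resemble each other, and how the counting split reads between them is not known. *Krt16*, a stress keratin of skin, went from 417 reads in all to 1, a ratio of 397 (70.9 to 15723).

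Genes of the nephron rose towards the control. Of 48 proximal tubule genes 36 rose and 1 fell (median 1.78), after a median of -2.84 against the control at 2 weeks, and at 5 weeks 13 were still lower and 1 higher (median -0.70). The 13 became 5 without OE replicate 2 or 3 at 5 weeks and 6 or 7 without any 1 of the controls. Their summed level was 86852 to 154234 at 2 weeks and 311463 to 631381 at 5 weeks, below the 806095 to 888303 of the controls at 5 weeks. *Slc13a3* (chr2:165405028-165473230), the dicarboxylate transporter of the basolateral membrane, went from 291, 644 and 785 to 11736, 4876 and 5265 (3.66, SE 0.35, adjusted p = 1.01e-06), with controls at 12975 to 18064. *Slc22a8*, the organic anion transporter OAT3, went from 97.7, 246 and 395 to 6319, 2228 and 3418 (4.10, SE 0.45, adjusted p = 3.29e-06). *Miox*, the inositol oxygenase of the tubule, went from 223, 587 and 1578 to 25343, 2850 and 9875 and ended -2.34 from the control.

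Replicate 1 at 5 weeks had the highest value of these 3 transporters and enzymes and of *Kap*, an androgen-regulated proximal tubule gene, with 200370 counts against 39560 and 43022 in the others. *Hnf4a*, the transcription factor that maintains proximal tubule identity, went from 1992, 5157 and 3341 to 11768, 10894 and 7842 (1.62, SE 0.29, adjusted p = 2.77e-04) and ended -0.44 from the control, against 11760 to 16291 in controls.

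Downstream segments divided. *Slc26a4*, the chloride-bicarbonate exchanger pendrin of intercalated cells, went from 275, 282 and 426 to 1816, 1728 and 2247 (2.58, SE 0.19, adjusted p = 7.80e-08) and ended -0.32 from the control. *Insrr*, the alkali sensor of the same cells, went from 159, 102 and 151 to 866, 1024 and 715 (2.66, SE 0.18, adjusted p = 4.37e-08), inside the control range of 844 to 1069 in 2 libraries. In all 9 of 23 collecting duct genes rose and 1 was lower than the control at 5 weeks. The 1 lower gene was *Slc4a1*, an anion exchanger of intercalated cells and of red blood cells (2.77, ending -1.19). It is also counted among the red blood cell genes below, and the part of blood in its values was not tested. Of 17 distal convoluted tubule genes 7 rose and 3 were lower at 5 weeks (1 without OE replicate 3 or control replicate 1), with *Slc8a1*, the sodium-calcium exchanger, rising from 134, 170 and 237 to 1541, 1412 and 1325 and ending 0.07 from the control. *Pvalb*, a calcium buffer of the early distal convoluted tubule, rose from 3.55, 3.56 and 4.05 to 323, 27.1 and 163 (4.60, SE 0.72, adjusted p = 9.34e-05) and ended at -3.44 from the control.

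Of 14 genes of the thick ascending limb 8 rose (median 1.15, and 5 without OE replicate 1 at 2 weeks), and 7 were still lower than the control at 5 weeks (median -0.94), against 4 without OE replicate 2 or 3 and 3 without control replicate 3. Set against the change in controls by the interaction, 3 of 14 passed upwards. *Slc12a1*, the cotransporter NKCC2, went from 3908, 12132 and 21661 to 36962, 37102 and 34684, with controls at 61617 to 114688 (1.84, SE 0.41, adjusted p = 1.70e-03, ending -1.33). *Umod*, which encodes uromodulin, had 15320, 32550 and 34499 and then 21824, 26957 and 24922 (-0.08, SE 0.29, adjusted p = 0.848), with controls at 45836 to 62603. *Egf* went from 694, 2208 and 4165 to 13644, 4481 and 3723 (1.72, SE 0.54, adjusted p = 0.0168, ending -3.03), a call that was lost without OE replicate 1 at 2 weeks (1.01) or at 5 weeks (1.14). Of 15 podocyte genes 1 rose and 1 fell, and 5 were lower than the control at 5 weeks.

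Transcripts of the mitochondrial genome rose in 7 of 7 tested genes (median 1.51), and their median difference from the control at 5 weeks was -0.54. *mt-Nd1*, a subunit of complex I, went from 48961, 95302 and 87015 to 279514, 305783 and 246632 (1.90, SE 0.28, adjusted p = 5.80e-05). Their share of all reads was 3.09% ± 0.974 (SD, n = 3) at 2 weeks and 6.78% ± 1.25 at 5 weeks, against 11.4% ± 1.25 and 8.53% ± 0.414 in controls. The OE groups did not overlap, and an exact two-sided permutation test gave p = 0.1, the smallest that 3 against 3 libraries can give. Nuclear genes of oxidative phosphorylation rose in 14 of 49 (median 0.86), in 7 without OE replicate 1 at 5 weeks and in 25 without OE replicate 2, and their median difference from the control at 5 weeks was -0.64. All 49 estimates from 2 to 5 weeks were above 0 (lowest 0.18). In 48 the limma adjusted p was under 0.05, against 7801 of all 16984 tested genes, so most missed only the threshold of 1 log2 unit. Against the control at 5 weeks 0 of 49 were called, yet every estimate was below 0 (highest -0.29). There 47 had an unadjusted limma p under 0.05, against 5047 of all 16984 tested genes.

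Catabolic enzymes of the tubule rose with it. Of 35 genes of fatty acid oxidation 21 rose (median 1.29), and the median at 5 weeks was -0.30 from the control. *Acaa1b*, a peroxisomal thiolase, went from 356, 477 and 654 to 4140, 3634 and 2518 (2.8, SE 0.25, adjusted p = 4.87e-07), inside the spread of the controls from 3010 to 4855 in 2 libraries. Of 50 genes of amino acid catabolism 32 rose (median 1.63), with 11 lower than the control at 5 weeks (7 without OE replicate 3). *Acmsd*, an enzyme of tryptophan degradation, went from 76.4, 47.2 and 169 to 1472, 435 and 838 (3.24, SE 0.49, adjusted p = 6.89e-05) and ended at -2.56, with 5-week controls at 4206 to 5732.

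Some nephron genes lowered at 2 weeks did not recover. *Dnase1* (chr16:4036942-4040024), a secreted endonuclease of the tubule, had 195, 670 and 1893 counts at 2 weeks and 1880, 579 and 370 at 5 weeks (0.23, SE 0.64, adjusted p = 0.787), while controls at 5 weeks had 10589 to 16747 (-4.21). *Nat8f6*, of the N-acetyltransferase 8 family, had 9.77, 5.34 and 11.3 and then 10.8, 1.87 and 11.4 (-0.33), against 101 to 499 in controls at 5 weeks. *Slc7a13*, the aspartate and glutamate transporter of the last proximal segment, had 27.5, 10.7 and 13.8 and then 883, 13.1 and 130 (2.79, SE 1.25, adjusted p = 0.0788), so that 1 library decided its estimate, and without replicate 2 at 5 weeks it passed (4.32). *Lmx1b*, a transcription factor of podocytes, was 1 of the 6 genes that moved further down, from 10.7, 41.8 and 39.7 to 13.5, 8.41 and 4.39 (-1.60, SE 0.45, adjusted p = 8.64e-03), but in the libraries with *Ddx3y* above 100 alone the change was -0.40 and did not pass.

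Matrix genes rose from 2 to 5 weeks, several of them from a level that had not differed from the control. Of 32 matrix genes 19 rose and 1 fell (median 1.13), with a median against the control of -0.07 at 2 weeks and 0.71 at 5 weeks, when 11 were higher. Without OE replicate 1 at 5 weeks 12 rose, and 5 to 7 were higher than the control without OE replicate 1, OE replicate 3 or control replicate 3. The controls had a median change of 0.45 over the same time, and set against it by the interaction 4 of 32 passed. *Col1a1*, the main chain of fibrillar collagen, went from 3878, 2395 and 4939 to 31248, 8386 and 15276 (2.15, SE 0.43, adjusted p = 6.89e-04), with controls at 4422 to 7043. *Mfap4*, a microfibril protein, went from 48.9, 54.3 and 64.8 to 1136, 255 and 821 (3.46, SE 0.44, adjusted p = 1.40e-05), with controls at 141 to 152. *Eln*, elastin, rose by 2.22, and *Comp*, a cartilage matrix protein, fell by 1.25, a call lost without any 1 of 5 OE libraries (all but replicate 1 at 2 weeks, -1.33 to -1.17).

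Of 18 genes of fibroblasts, pericytes and smooth muscle 9 rose and 1 fell (median 0.97), and their summed level went from 9192 to 9979 up to 13637 to 23108, overlapping the 14892 to 16614 of the controls at 5 weeks. In the controls these genes had a median change of 0.41, and by the interaction 3 of 18 passed upwards and 1 downwards. The part of these cells in the matrix values was not tested. *Gli1*, the hedgehog target that marks fibrogenic pericytes, rose from 29.3, 63.2 and 66.4 to 202, 137 and 186 (1.77) and moved away from the control. *S100a4*, found in fibroblasts and in leukocytes, went the other way at -2.26.

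There were 71 genes that did not differ from the control at 2 weeks, then rose and were higher at 5 weeks, and 25 that fell and were lower. *Mfap5* (chr6:122505845-122529290), a microfibril glycoprotein, went from 67.5, 65.9 and 85.8 to 636, 267 and 638, with controls at 30.7 to 87.7 (2.70, SE 0.44, adjusted p = 1.42e-04). *Arhgap36*, an activator of hedgehog signalling, went from 0, 3.56 and 3.24 to 79.3, 52.4 and 91.4 (4.77, SE 0.62, adjusted p = 1.73e-05), and the controls at 5 weeks held 2 reads. The keratins *Krt4* and *Krt14* rose by 2.84 and 2.41, and *Krt14* was 95.5, 71.1 and 118 at 5 weeks against 14.8 to 30.1 in controls. Of 9 urothelial genes 5 rose, and their summed level was 2016 to 4190 in OE kidneys at 5 weeks against 1100 to 1786 at 2 weeks and 1500 to 2481 in controls at 5 weeks. The part of urothelium in the keratin values was not tested. *Cdsn*, corneodesmosin, fell from 111, 139 and 75.3 to 9.01, 14 and 5.27, below controls at 52.8 to 122 (-3.44, SE 0.39, adjusted p = 4.74e-06).

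A few genes changed sides. *Pappa2*, a protease that releases IGF from its binding proteins and is made in the thick ascending limb, went from 19.5, 26.7 and 53.4, below the control at 2 weeks, to 547, 531 and 809 at 5 weeks, above controls at 34.8 to 102 (4.30, SE 0.48, adjusted p = 4.03e-06). *Cyp4a12a*, an androgen-dependent fatty acid hydroxylase, went from 43.5, 24.9 and 34.0 to 50.4, 224 and 233 (2.02, SE 0.69, adjusted p = 0.0253), and lost the call without any 1 of 4 OE libraries (replicates 2 and 3 of each time, 1.65 to 2.04) and in the libraries with *Ddx3y* above 100 (1.30). Its controls varied from 96.8 to 1141 at 2 weeks and from 24.6 to 28.5 at 5 weeks. *Trim12a*, a TRIM family gene, had 1966, 1093 and 1271 at 2 weeks and 0, 1.87 and 0 at 5 weeks, but control replicate 3 had 149 at 2 weeks and 168 at 5 weeks where the other controls had at most 2.58, so no control level can be given for it.

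Targets of the let-7 family, which *Lin28A* blocks, were followed next. The mature mmu-let-7a-5p is printed with its seed, bases 2 to 8, in capitals, and below it are 1 site each from the 3′ UTRs of 4 genes known as let-7 targets, with the letters that pair with the seed in capitals (GENCODE vM21 on GRCm38). They are *Hmga1* at chr17:27563280-27563301 on the plus strand, and on the minus strand *Hmga2* at chr10:120364222-120364243, *Igf2bp1* at chr11:95961776-95961797 and *Nr6a1* at chr2:38727447-38727468.
mmu-let-7a-5p: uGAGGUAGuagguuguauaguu
Hmga1: tctgttcacaaaCTACCTCtgg
Hmga2: gacattcaatttCTACCTCagc
Igf2bp1: gtgcgaagtaaaCTACCTCaag
Nr6a1: tgacaaagacaaCTACCTCaat
The letters CTACCTC stood in the 3′ UTR of 13 of the 18 listed let-7 targets (72.2%) and of 1512 of 14595 tested genes with a 3′ UTR (10.4%). The list was drawn up from let-7 targets, so its higher share describes the choice and is no test of let-7 action here. From 2 to 5 weeks 8 of the 18 fell (median -0.79). At 2 weeks 11 had been higher and 1 lower than the control, and at 5 weeks 4 were higher. *Hmga1*, an architectural chromatin protein, went from 2242, 1727 and 1905 to 163, 266 and 268 (-3.10, SE 0.22, adjusted p = 5.49e-08) and ended 0.44 from the control. *Hmga2*, its embryonic relative, fell from 761, 266 and 204 to 47.7, 65.4 and 86.1 (-2.40) and remained 1.62 above. *Igf2bp1*, an mRNA-binding protein of fetal tissue, and *Nr6a1*, an orphan receptor of the embryo, fell by 2.60 and 2.44. let-7 itself is not measured in these libraries.

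Of 10 imprinted growth genes 6 fell and 3 rose, with 1 rising without OE replicate 1 at 2 weeks. *H19*, a maternally expressed long noncoding RNA, fell from 1705, 2352 and 2677 to 257, 15.9 and 15.8 (-5.72, SE 0.77, adjusted p = 2.18e-05), and its neighbour *Igf2* fell by 3.01. *Peg3*, a paternally expressed zinc finger gene, rose from 1333, 6129 and 2275 to 3650, 10146 and 4613, with overlapping groups, and its call (1.07, SE 0.40, adjusted p = 0.0399) was lost without OE replicate 1 or 3 at 2 weeks or replicate 2 at 5 weeks (0.57 to 0.96).

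Of 22 genes of the p53 pathway and cell death 15 fell (median -1.55), and 6 were still higher than the control. *Mdm2*, the ubiquitin ligase of p53, went from 5612, 5048 and 4049 to 1373, 1730 and 1662 (-1.62, SE 0.14, adjusted p = 3.07e-07), with controls at 1304 to 1434. Of 30 cell cycle genes 1 was called, and it rose. Of 8 red blood cell genes 7 rose (median 2.63), and their summed level in OE kidneys was 3181 to 8110 at 2 weeks and 13632 to 72126 at 5 weeks, within 56683 to 215641 of the controls at 5 weeks for 1 library. By the interaction 3 of the 8 passed upwards (median 2.44). A fit with the *Xist* level as a covariate called 1872 genes up and 1582 down from 2 to 5 weeks in OE kidneys, against 1865 and 1564 without it, and counted 996 higher and 1086 lower genes as returned. The part of blood content in any result above was not tested.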

How the data were processed

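Per the labels, RNA from 18 mouse kidneys was sequenced in 6 groups of 3. The deposited signal values are normalised read counts per gene: the authors aligned reads to mm10 with STAR, took gene counts from HTSeq and scaled each library by its DESeq2 size factor. Their versions are not given in the sources used here. Whole reads were recovered from 100% of values within a tolerance of 0.001, and 0 columns of per-sample values were left unused. Of 49585 rows 99.5% matched the annotation, which gave the coordinates.

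Genes with a mean above 10 were tested on log2(value + 1) by limma 3.58.1 with an intensity trend (R 4.3.3), in 1 fit of 18 libraries and 6 groups. Calls needed a change of more than 1 log2 unit and an adjusted p under 0.05. limma was kept because the deposited values are normalised, and edgeR 4.0.16 and DESeq2 1.42.0 on recovered reads were alternatives. A pseudocount of 1 understates the change of genes with few reads. Intervals and floors cover counting error only.

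The genes, the 54 lists (1103 genes, 1041 tested) and the classes were chosen with earlier results of these data known. Genes named were *Lin28a* and *Six2*, the 10 with the largest rise and fall whose libraries did not overlap, per list the 4 with the largest change and any against most of the list, per class the 8 with the largest 2-week difference, and the 8 largest of the genes new at 5 weeks. *Irf7*, *Isg15*, *Irf1*, *Irf9*, *Gbp8*, *H2-Ab1*, *Il1b*, *Egr1*, *Adgre1*, *C3*, *Sox9*, *Timp1*, *Vcam1*, *Spp1*, *Clu*, *Umod*, *Col1a1* and *Mdm2* were added after their values were seen. Some genes are not reported here. On simulated data for this comparison the test called 79.1% of genes given a change of 1.5 log2 units, 86.6% at 2, 97% at 3 and 0.0298% of unchanged genes. The simulation changed only 200 of 16984 genes, whereas 7801 had an adjusted p under 0.05 in the data (limma). Because the adjustment depends on the share of changed genes, these rates may not carry over. Alternatives were other pseudocounts (0.5 and 5), filters (none, and a mean above 50), quantile and upper-quartile scaling, the compared groups alone, robust moderation, the replicate number as a block, *Xist* as a covariate, the libraries with *Ddx3y* above 100, and leaving out each library. Figures used matplotlib 3.10.9 in Python 3.11.15. Cytometry, ELISA, staining and the Dox withdrawal experiment were not analysed here.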

Additional observations from a re-analysis of the deposited data

Results flagged for a closer look

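The effect of OE differed between 2 and 5 weeks, by the interaction term of the limma fit, in 1530 genes where it was higher at 5 weeks and 1234 where it was lower. In some of these genes the effect against the control passed the test in opposite directions at the 2 times. It was below the control at 2 weeks and above it at 5 weeks, with the interaction in log2 units, for *Gm6614* (5.73), *Cyp4a12a* (5.67), *Pappa2* (4.99), *Cadm3* (4.72), *Cyp4a12b* (4.53), *Xlr3b* (4.07), *Ces2c* (3.38), *Slitrk4* (3.10), *Aldh1a7* (3.02) and *Fgf10* (2.87). It was above the control at 2 weeks and below it at 5 weeks for *Plb1* (-5.23), *C1ql1* (-3.90), *Slit1* (-3.37), *Serpina6* (-3.06), *4930415O20Rik* (-2.94), *Arc* (-2.92), *Ifit1bl2* (-2.75), *Wnt16* (-2.63) and *Pomc* (-2.56). For *Plb1* the 5-week side rests on few reads, 17 in all in controls and 2 in OE kidneys.

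*Serpina6*, the corticosteroid-binding globulin, moved in the controls as well. Controls had 1889, 403 and 871 normalised counts at 2 weeks and 42515, 43230 and 39605 at 5 weeks, and OE kidneys 1693, 4705 and 2231 and then 26605, 13534 and 9226. It rose in both genotypes (2.52 in OE) and only the smaller rise in OE kidneys turned its sign against the control.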

How the results depend on the processing

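No gene called in the main comparison was called in the opposite direction under any of the alternatives run. Leaving out 1 library at a time gave 1520 to 2043 rising and 1381 to 1603 falling genes. The number of genes higher at 2 weeks that returned was 1536 without a filter, which tests more genes. The control comparison of 14 genes gave 145 with DESeq2, 36 with the replicate block, 91 in the libraries with *Ddx3y* above 100, and 3 to 151 without 1 library. Persisting genes were 206 (higher) and 84 (lower) in the libraries with *Ddx3y* above 100, and 201 to 439 and 130 to 373 without 1 library. The cause of these shifts was not tested. *Cd4* changed sign in the libraries with *Ddx3y* above 100 (0.0774, adjusted p = 0.934) against -1.78 in all. The share of called genes that rose was 54.4%, and 45.3% (no filter) to 59.8% (upper quartile) under the alternatives. Depth limits genes with few reads, such as *Krt16* with 1 read over the 3 OE libraries at 5 weeks.

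The replicate numbers did not pair the OE libraries: deviations of same-numbered libraries correlated at 0.01, 0.35 and -0.15. With the replicate number as a block 1901 genes rose and 1580 fell, the interaction gave 1602 and 1285, returned genes were 973 and 1087 and persisting genes 331 and 217.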

Other observations

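Several genes of the organic anion transporter family rose from very low levels at 2 weeks. *Slc22a30* rose by 5.13 log2 units from 2 to 5 weeks and ended at -1.83 from the control, *Slc22a29* rose by 4.65 and ended at -1.85, and *Slc22a28* rose by 3.68 and ended at -3.31. They are near copies of each other, and how the counting split reads between them is not known.

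*Ifi44l*, an interferon-stimulated gene by its family, did not follow the interferon response. OE kidneys had 0.888, 0 and 0 normalised counts at 2 weeks and 214, 0.935 and 387 at 5 weeks. Controls had 1.14 to 4.44 at 2 weeks and 97.5 to 274 at 5 weeks, so 1 library of 6 at 5 weeks was near 0 while the other 5 were not.

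*Rp1*, a microtubule protein of photoreceptors, had 0 reads in the 3 OE libraries at 2 weeks and 80 at 5 weeks, at least 9.24-fold higher against a floor of 3 reads per library, and controls at 2 weeks held 62 reads.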
